A study of Apis mellifera with 6 samples.

Results

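Drone and queen brains of the honey bee (Apis mellifera) were compared through the nucleosome-free ATAC-seq peak lists of 2 drone and 2 queen libraries. The 4 lists were merged wherever peaks overlapped by at least 1 bp, which gave 50860 sites, against 60136 when the worker lists of the same series were merged in as well. A site was called in a library when one of its peaks lay in it. Of the 50860 sites, 17466 were called in all 4 libraries, 5128 in both drone libraries and neither queen library (drone-only), 2173 in both queen libraries and neither drone library (queen-only), and 26093 in some other combination.

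Drones are haploid males that develop from unfertilised eggs, whereas queens are diploid females that develop from fertilised eggs and were reared here by grafting young larvae into queen cups. All bees were daughters or sons of one mother queen and were taken as newly eclosed adults, within an hour of emergence. Central brains were used, without the optic lobes, and brains were pooled for each library, so no value belongs to a single bee. Sex, ploidy and rearing therefore differ together between the groups and cannot be told apart.

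In ATAC-seq, a transposase (Tn5) inserts sequencing adapters into DNA free of nucleosomes, and short fragments come mostly from enhancers and promoters on which regulatory proteins sit. Honey bees have no sex chromosomes. Sex is set by one gene, complementary sex determiner (csd), which makes a female when 2 different alleles are present and a male when a single allele is present, and it acts through feminizer and doublesex.

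The drone lists held 38341 and 31921 peaks (replicates 1 and 2 throughout) and the queen lists 30538 and 28026. Both drone lists were longer than both queen lists. According to the study's mapping statistics, both drone libraries had more reads, of all fragment lengths, than either queen library. The part of depth in the comparisons was not tested. A fold enrichment here is the pileup of fragments at a summit plus 1, over the pileup expected from its surroundings in that library (the local background) plus 1, so the added 1 lowers the folds of sites with a low background. Its median was 5.78 and 5.99 in drones and 5.60 and 5.81 in queens, so the groups overlapped. The median pileup at a summit was 16 to 19 fragments. The commonest local background of these short fragments was 1.42 and 1.08 in drones and 1.47 and 1.24 in queens. By this value the drone libraries did not lie above the queen libraries. Peak names carried a sequencing run label in the queen lists and none in the drone lists, so a run and the phenotype cannot be told apart. Peaks near the neuronal genes Syt1 and brp, which encode a synaptic vesicle protein and a protein of the active zone in Drosophila, were present in all 4 libraries (4, 4, 1 and 2 for Syt1 and 11, 14, 14 and 12 for brp, in the order drone 1, drone 2, queen 1, queen 2).

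Since lists of different length are compared, fold enrichment was turned into a percentile within its own list, where 100 is the strongest peak. Shared sites, called in all 4 libraries, lay at median percentiles of 74.9 and 70.0 in the drone lists and 68.9 and 66.6 in the queen lists. Drone-only sites were weaker, at 37.7 and 31.4, and so were queen-only sites, at 34.8 and 32.4. The median fold enrichment of drone-only sites was 5.08 and 4.93, on 15 and 12 fragments, and that of queen-only sites was 4.85 and 4.91, on 14 and 13 fragments. The sites of one phenotype thus sat at about the same height in both phenotypes, in the lower part of each list. Above percentile 50 in both of their own lists were 769 drone-only sites (14.996% of them) and 333 queen-only sites (15.32%), so these shares were alike. These ranks come from the calls that chose the sites and are given with no test.

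**Figure D1:**
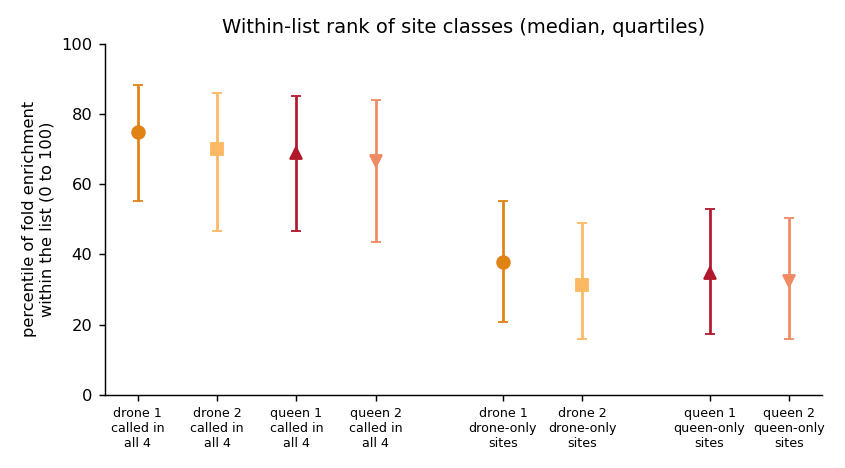
Percentile of fold enrichment within each list (y axis, 0 to 100, 100 the strongest peak) for sites called in all 4 libraries, drone-only sites and queen-only sites. Points are medians over sites and bars run from the lower to the upper quartile, and medians are 66.6 to 74.9 at shared sites and 31.4 to 37.7 at sites of one phenotype.

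The number of sites on each side depended on list length. With each list held to its 28026 strongest peaks, 3192 sites were drone-only and 2913 queen-only, so that the drone excess of 5128 to 2173 shrank to a small one. A call of the other phenotype lay within 500 bp of 994 drone-only sites (19.4%) and 454 queen-only sites (20.9%), and within 100 bp of 2.18% and 2.72%. The closest such call was 1 bp away for drone-only sites and 6 bp for queen-only sites, just outside the overlap that would have made the site a shared one. The least significant member peak had a −log10 q of 2.01 among drone-only sites and 2.06 among queen-only sites, at the limit of the lists. A missing call near that limit is no evidence of closed chromatin.

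The 2 classes lay in different places relative to genes. In drone-only sites on chromosomes the summit lay inside a gene body in 82.7% (exact 95% binomial interval 81.6 to 83.7), against 72.1% of queen-only sites (70.1 to 74.02) and 74.1% of sites called in all 4 (73.4 to 74.7). Sites called in some other combination lay between drone-only and shared sites, at 78.9% (78.4 to 79.4). These intervals cover counting error only. At equal list length the shares were 82.7% of drone-only, 72.0% of queen-only and 73.9% of shared sites. With 200 bp added on either side of genes they were 83.9%, 73.6% and 82.2%, so drone-only and shared sites then differed little. Across whole lists the summit lay in a gene for 77.7% and 76.9% of drone peaks and 74.5% of the peaks of either queen list. The drone libraries were both above the queen libraries, and the exact permutation test (two-sided) gave p = 0.333, the smallest that 2 libraries against 2 allow (adjusted p = 0.4 over 6 measures).

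Shared sites lay near gene ends more often than all other sites. A summit lay within 200 bp of a gene start or end in 24.8% of sites called in all 4 libraries (24.1 to 25.4), but in 5.43% of drone-only (4.82 to 6.08) and 4.66% of queen-only sites (3.78 to 5.68). The median distance from the summit to the nearest gene end was 1956.5 bp for shared sites, 7904 bp for drone-only sites and 8942 bp for queen-only sites. Sites called in some other combination were similar to those of one phenotype, with 7.64% near a gene end and a median distance of 6863 bp. Lying away from gene ends was thus not particular to sites of one phenotype. Drone-only sites lay within genes more often than queen-only sites. The gene table gives no exons or introns, so these were not separated. Shared sites were also wider, with a median width of 241 bp against 159 bp and 148 bp, and a merged site can only be as wide as or wider than its peaks.

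Queen-only sites were more often on unplaced scaffolds, the parts of the assembly that have no chromosome. The share was 7.23% (exact interval 6.17 to 8.395) of queen-only sites and 1.15% (0.877 to 1.48) of drone-only sites, and 5.56% and 1.35% at equal list length. In whole lists, 98.5% and 98.3% of drone peaks and 97.3% and 97.4% of queen peaks were placed.

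The worker lists were not used to choose the sites. Whether workers share a sequencing run with one phenotype, and its part in their calls, was not tested. Workers are diploid females like queens. Worker replicates 1 and 2 had a call at 35.9% and 41.6% of drone-only sites and at 63.5% and 69.4% of queen-only sites. At sites called in all 4 drone and queen libraries these shares were 96.4% and 97.2%. In total 2415 drone-only sites (47.1%) were called in neither worker library, against 465 queen-only sites (21.4%). At sites called in some other combination the worker shares were 40.0% and 44.4%, and 45.4% were called in neither. Drone-only sites were thus a little below the sites of other combinations, and queen-only sites above them. At equal list length the worker libraries had calls at 42.3% and 48.2% of drone-only sites and 70.2% and 74.3% of queen-only sites, so queen-only sites remained the more often called in workers. Both worker libraries showed this order, and no test was run over 2 libraries.

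A few sites of one phenotype were very strong. In the top 10% of both own lists were 35 drone-only sites and 14 queen-only sites. Gene positions were used on chromosomes only, where 32 and 11 of these sites lay. Of the 32 drone-only sites 28 lay in genes, and of the 11 queen-only sites 1 did. Of the 35 drone-only sites, 27 were called in no worker library, and of the 14 queen-only sites, 10 were called in both. The strongest drone-only sites had folds that no queen-only site reached, since the highest queen-only fold enrichment was 23.1 and the highest drone-only one 87.3.

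The strongest drone-only site lay on LG12 (linkage group 12), from 1614269 to 1614586 on Amel HAv3.1, 784 bp from LOC107965377, a long non-coding RNA. It had a fold enrichment of 84.5 and 87.3 in the 2 drone libraries, on 556 and 552 fragments over local backgrounds of 5.59 and 5.34. A queen call lay 193 bp away from it. The second, on LG11 from 13777084 to 13777262 in the non-coding LOC107965194, had 83.4-fold and 84.3-fold enrichment. The third, on LG3 from 2042546 to 2042638, within both non-coding genes LOC107964011 and LOC100577971, was only 93 bp wide and reached 78.5-fold and 81.6-fold on 300 and 281 fragments. The nearest queen call to this last site was 10399 bp away.

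The other 7 of the 10 drone-only sites with the best mean percentile all lay in protein-coding genes. On LG7, LOC410140 held a site at 3446268 to 3446454 with 77.6-fold and 74.8-fold enrichment. On LG6, LOC411155 held one at 12371608 to 12371755 (69.5-fold and 70.8-fold) and LOC411157 one at 11740685 to 11740758 (45.7-fold and 45.1-fold). The site in LOC411157 also lay within the non-coding LOC102653904. The last 4 lay in LOC410756 on LG1, LOC413224 on LG12, LOC551736 on LG11 and LOC410573 on LG15, at 38.5-fold to 54.0-fold. The site in LOC410756 also lay within the non-coding LOC107965445. The 10 sites ranked between 7 and 68 within the drone lists, and none of them was called in a worker library.

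The best queen-only sites were lower and lay between genes. The first, on LG12 from 11512429 to 11512526, was 6001 bp from LOC408387 and had 23.1-fold and 20.1-fold enrichment on 56 and 44 fragments. The second lay at the very start of LG1 (3075 to 3169), 6185 bp from LOC551580, with 20.2-fold and 18.6-fold. Both were called in both worker libraries. Of the 10 best queen-only sites, 3 were on unplaced scaffolds and the other 7 all lay outside genes. Of these 7, 3 fell close together on LG9 between 2040728 and 2063120, near LOC100576170 and LOC413382. The last of the 3 (2062789 to 2063120) had 14.0-fold and 12.6-fold enrichment over local backgrounds of 6.28 and 5.34 fragments, above the commonest backgrounds of these libraries (1.47 and 1.24).

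At sites called in all 4 libraries, the question is whether the same site ranks differently in the phenotypes. Across the 17466 shared sites the percentiles correlated at Spearman 0.857 between the drone libraries and 0.819 between the queen libraries, and at 0.705 to 0.720 between a drone and a queen library. Sites are not independent replicates, and these values are a description. The median absolute difference of percentiles was 6.95 between the drone replicates and 8.61 between the queen replicates, but 10.5 to 11.4 between phenotypes. Libraries of one phenotype were thus closer to each other than to those of the other.

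No single shared site passed the test, which was limma on normal scores of the percentiles with Benjamini-Hochberg adjustment and a threshold of 0.05. It called 0 of 17466 sites in either direction (0%), with a lowest adjusted p of 0.120. At an unadjusted p under 0.05 there were 3191 sites (18.3%), 2162 towards drones and 1029 towards queens. With equal list lengths this split was 1297 towards drones and 1532 towards queens, so no direction is read from it. In place of the percentiles, the log2 fold enrichment quantile-normalised across the 4 lists gave 87 sites higher in drones and 106 higher in queens in the same test.

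Without a test, both drone percentiles lay above both queen percentiles at 5927 shared sites (33.9% of those compared), and the reverse held at 3138 (18%). This excess towards drones followed list length. At equal list length the shares were 25% (3973 of 15914) and 25.4% (4037), and with shared sites ranked only among themselves they were 25.7% (4495 of 17466) and 25% (4370). The last ranking was chosen after the data were seen. No direction towards one phenotype is therefore read from these counts. Differences of more than 50 percentile points numbered 162 with drones above and 59 with queens above.

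Sites with queens above were less often in a gene (68.8%, exact interval 67.1 to 70.4) than sites with drones above (76.2%, 75.1 to 77.3). They were also less often within 200 bp of a gene end, at 19.0% (17.6 to 20.4) against 26.0% (24.9 to 27.1). Position relative to genes thus went the same way as at sites of one phenotype for gene bodies, and workers had a call at 96.3% to 97.9% of the sites on either side.

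The shared site with the largest gap towards drones lay on LG8 from 4336869 to 4337403, within the protein-coding LOC100576471. Its percentiles were 89.2 and 91.1 in drones and 7.72 and 17.2 in queens, from fold enrichments of 12.1 and 12.6 against 3.64 and 4.27. The pileups behind them were 40 and 34 fragments in drones and 8 and 9 in queens. On the normal score scale the difference was 2.48 ± 0.280 (SE), and the limma adjusted p was 0.120. The site was called in both worker libraries.

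Others of this kind lay in LOC408804 on LG4 (8998406 to 8998728), at percentiles of 86.6 and 86.3 in drones and 19.1 and 2.80 in queens, and in LOC100578423 on LG13 (9453763 to 9454240), at 71.5 and 90.9 against 3.20 and 14.9. The local background also differed at some of these sites. One is in the non-coding LOC100577216 near the start of LG3 (12593 to 12814), where the pileup was 60 and 48 fragments in drones and 46 and 40 in queens while the background was 5.12 and 4.44 against 14.1 and 9.76. The part of the background in that difference was not tested.

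Towards queens, the largest gap lay on LG2 from 11822966 to 11823151, 231 bp from the protein-coding LOC102653640. Its percentiles were 2.04 and 1.48 in drones and 75.5 and 86.5 in queens, from fold enrichments of 3.19 and 3.27 against 7.74 and 9.97. Here the pileups were alike (27 and 21 fragments in drones, 24 and 26 in queens), and the local background was 7.78 and 5.72 in drones and 2.23 and 1.71 in queens. The next, on LG14 from 5532117 to 5532277 and 5752 bp from LOC551579, differed in pileup instead, with 8 fragments in each drone library and 24 and 20 in the queen libraries. The third, on LG10 from 19811 to 19967, had 8 and 9 fragments in drones and 26 and 24 in queens, and was called in no worker library. The adjusted p of the 20 sites named by this rule was 0.120 to 0.130 in limma on the percentiles, and 0.0153 to 0.0488 on the quantile-normalised log2 fold enrichment.

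**Figure D2:**
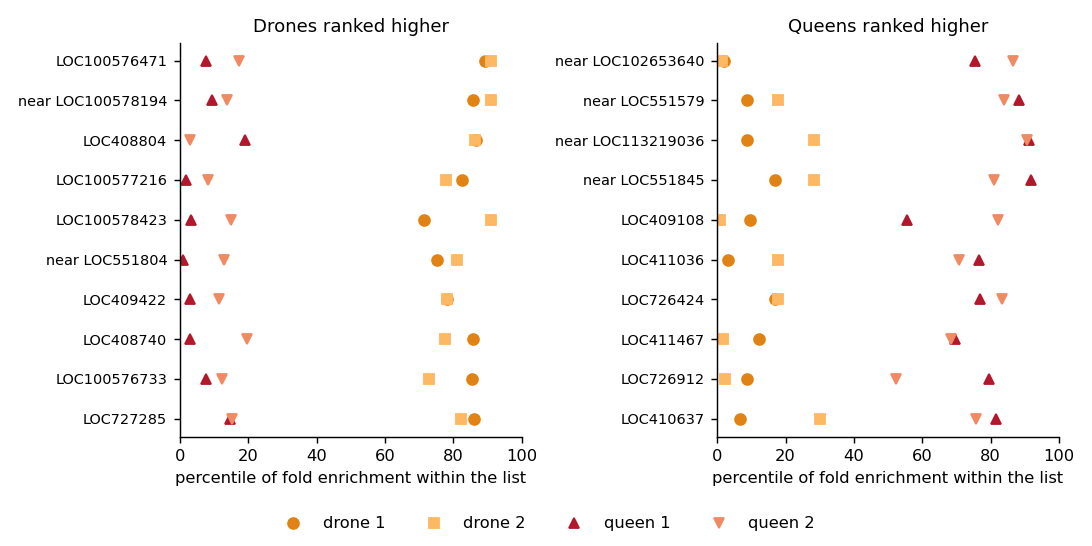
Percentile of fold enrichment within the list (x axis, 0 to 100) in each of the 4 libraries at the 10 shared sites with the largest gap in each direction, named by the enclosing gene (the second where 2 overlap) or the nearest one ("near"). By the rule that chose them no drone point overlaps a queen point, and at the site near LOC102653640 the drone libraries are at 2.04 and 1.48 and the queen libraries at 75.5 and 86.5.

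The spread over the 16 chromosomes was examined next. Drone-only sites ran from 17.1 per Mb of chromosome on LG9 to 26.7 per Mb on LG7, with a median of 23.3. Queen-only sites ran from 6.90 per Mb on LG2 to 13.95 per Mb on LG16, with a median of 9.06. LG9 and LG14, the lowest for drone-only sites (17.1 and 17.5 per Mb), held 8.50 and 8.997 queen-only sites per Mb. Of the sites of one phenotype, drone-only sites made up 77.3% on LG7 (exact interval 73.4 to 81.0), 77.2% on LG2 and 76.9% on LG15, and 62.5% on LG16 (56.4 to 68.3) and 63.7% on LG13. They were the majority on every chromosome.

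With equal list lengths the drone share ran from 45.9% on LG13 to 65.3% on LG7, with a median of 51.8%. LG7 (262 drone-only and 139 queen-only sites), LG12 (204 and 126) and LG15 (149 and 98) were highest. LG3, LG13 and LG16 were then the lowest.

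**Figure D3:**
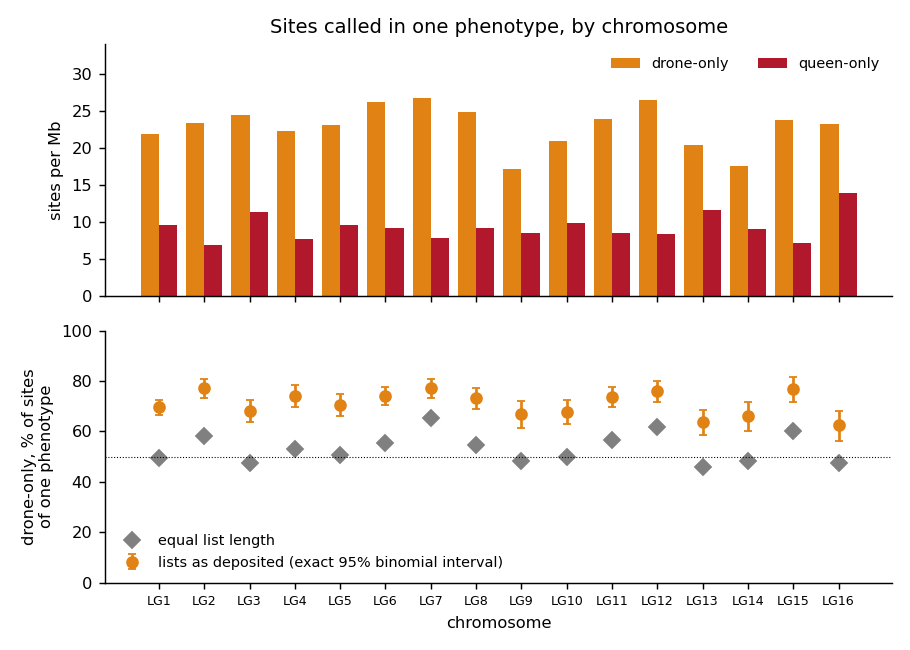
Upper panel, drone-only and queen-only sites per Mb on each chromosome (bars from 0); lower panel, drone-only sites as a percentage of the sites of one phenotype, in the lists as deposited (circles, bars are exact 95% binomial intervals) and at equal list length (diamonds), with a dotted line at 50%. In the lists as deposited all circles lie between 62.5% and 77.3%, whereas diamonds lie between 45.9% and 65.3% with LG7 highest.

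To test this over libraries, the share of each list's placed peaks that lay on a chromosome was compared with limma on the log2 scale, adjusted over the 16 chromosomes. The share was higher in drones on 4 chromosomes (25% of 16) and higher in queens on 3 (18.8%). LG12 held 5.10% and 5.19% of drone peaks and 4.79% of the peaks of each queen list, a log2 difference of 0.10 ± 0.0146 (SE, adjusted p = 0.0136 in limma). LG2, LG6 and LG7 also had higher shares in drones, by 1.04-fold to 1.06-fold. LG16 held 3.48% and 3.64% of drone peaks and 3.81% and 3.90% of queen peaks, a log2 difference of -0.12 ± 0.0267 (limma adjusted p = 0.0211). LG3 and LG10 also had higher shares in queens.

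All 7 differences were small, with folds from 0.923 on LG16 to 1.07 on LG12. They rest on 2 libraries a group. Without drone replicate 1 no chromosome was called, and none without drone replicate 2, while 6 were called without queen replicate 1 and 4 without queen replicate 2. In each of these the 7 differences kept their sign. At equal list length 6 were called, LG7, LG12 and LG15 towards drones and LG3, LG13 and LG16 towards queens. With lists cut to equal length by fold enrichment 3 were called, LG7 and LG12 towards drones and LG10 towards queens. Shares over chromosomes sum to a whole, so a rise on one must be met on others.

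**Figure D4:**
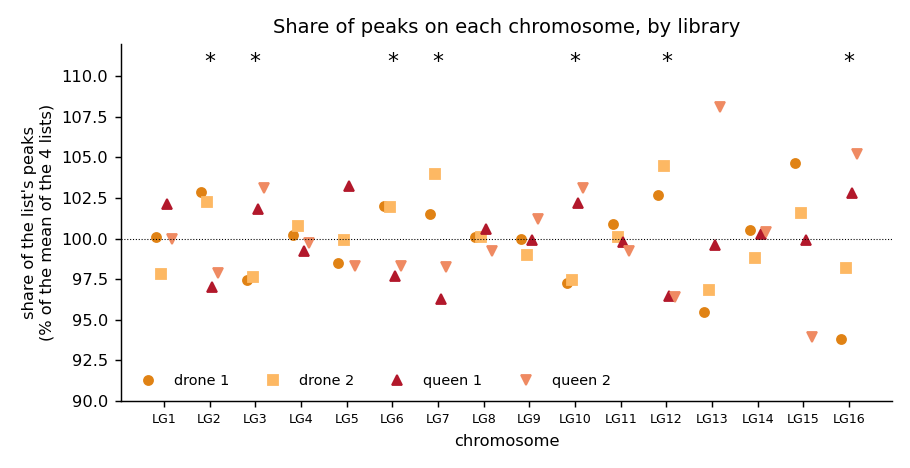
Share of each library's placed peaks on each chromosome, as a percentage of the mean of the 4 lists (y axis, which does not start at 0, dotted line at 100). Stars mark the 7 chromosomes with an adjusted p under 0.05 in limma (LG2, LG3, LG6, LG7, LG10, LG12, LG16), on each of which the drone and queen points do not overlap.

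On a finer scale, drone-only sites lay in 81.2% of 2215 windows of 100 kb and queen-only sites in 54.9%, against 95.2% for sites called in all 4. The distance from one drone-only site to the next had a median of 23706 bp and for queen-only sites 65146 bp, and 27.8% and 15.2% had another of their kind within 5 kb. Drone-only sites were the more numerous, and more sites fill more windows and lie closer together. No order between the classes is therefore read from these values. Most windows held few sites of one phenotype. The window richest in queen-only sites held 11, on LG9 from 2000001 to 2100000, all between genes, with 3 drone-only sites and 1 shared site. This is the stretch that also held 3 of the 10 strongest queen-only sites. For drone-only sites the highest number was also 11, on LG6 from 1700001 to 1800000, where 9 lay in LOC408867, and on LG12 from 1900001 to 2000000, where all lay in LOC408372. The first 100 kb of LG3 held 8 queen-only sites, in LOC409422 and LOC100577216.

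Counted by gene, with 2 kb on either side, 2865 of 12255 genes (23.4%) had a drone-only site and 1373 (11.2%) a queen-only site. Both kinds lay at 701 genes, which is 24.5% of the former and 51.1% of the latter. Genes with such sites were long, with a median length of 11.5 kb and 24.7 kb against 3.62 kb for all genes, and a longer gene offers more room for a site. At least 5 drone-only sites lay at 265 genes and at least 5 queen-only sites at 48.

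The gene with the most drone-only sites was LOC725329 on LG7 (9659369 to 10447465). Among its 210 sites were 26 drone-only, 5 queen-only and 55 shared sites. Over all sites of the comparison 10.1% were drone-only and 4.27% queen-only. Peaks at LOC725329 numbered 153 and 136 in drones and 107 and 90 in queens. Choosing genes by their drone-only sites favours drones in such counts, so no order between the groups is read from them. With equal lists it held 17 drone-only and 9 queen-only sites. Next came LOC411157 on LG6 (11347100 to 11859056), with 25 drone-only and 1 queen-only site among 103 sites. Its peaks numbered 83 and 68 against 40 and 36. LOC408372 on LG12 (1709289 to 2029038) had 24 and 1 among 86 sites, with peaks of 72 and 64 against 34 and 40. For these 2 genes equal list length left 22 and 17 drone-only sites beside 2 and 1 queen-only sites.

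Mad on LG15 (951021 to 1360467), which in Drosophila encodes the transcription factor that carries BMP signals into the nucleus, held 20 drone-only sites and no queen-only site, and 13 and 0 at equal list length. These 20 sites were modest, with fold enrichments from 3.66 to 8.26 in drone replicate 1, and 22 further sites at Mad were called in all 4 libraries. The drone-only sites were 19.4% of all 103 sites at Mad, against 10.1% of sites over the whole comparison. Of its shared sites, 8 had drones above and 3 had queens above, near the shares over all shared sites. LOC725885 on LG1 likewise held 22 drone-only and 0 queen-only sites (15 and 0 at equal list length).

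Queen-only sites were spread more thinly. LOC725024 on LG9 (3303860 to 3875962) had the most, 14 among 109 sites, with 9 drone-only sites. Its peaks numbered 71 and 49 in drones and 62 and 52 in queens, so the groups overlapped. Over all sites 4.27% were queen-only and 10.1% drone-only. LOC102656349 on LG16 (3344509 to 3592475) had 7 queen-only and no drone-only site among 42 sites. Its peaks numbered 20 and 23 in drones and 35 in each queen library. LOC410882 on LG2 (7838474 to 8124798) had 8 and 3 among 31 sites, with 16 and 17 peaks against 23 in each queen library. LOC410353 on LG12 had 13 queen-only and 4 drone-only sites at equal list length.

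**Figure D5:**
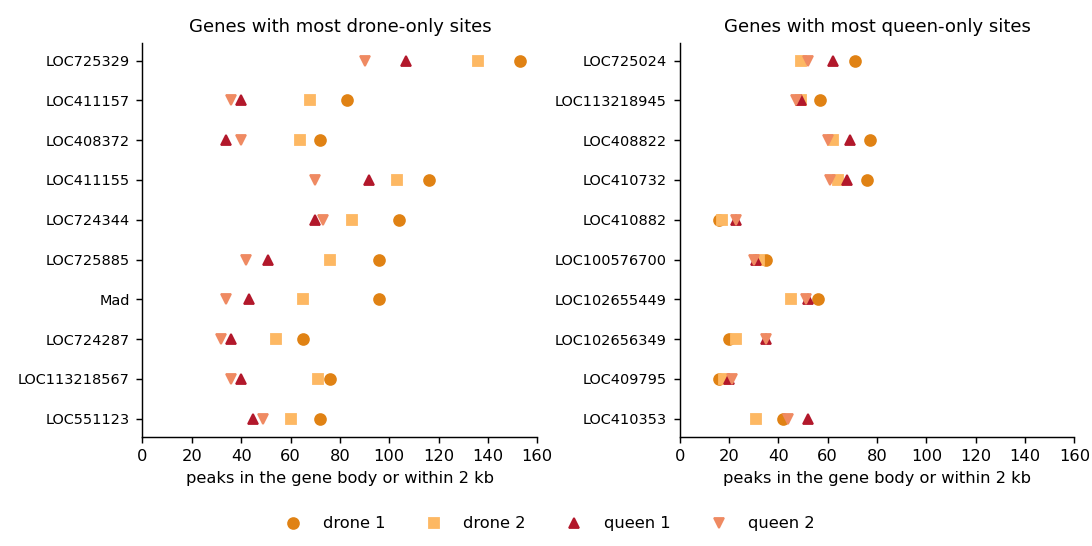
Number of peaks in the gene body or within 2 kb of it (x axis, from 0) in each library, at the 10 genes with the most drone-only sites (left) and the 10 with the most queen-only sites (right). The genes were chosen for sites of one phenotype, which favours that phenotype in these counts, so no order between the groups is read from them. At LOC411157 the drone libraries held 83 and 68 peaks and the queen libraries 40 and 36.

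Gene groups were then read from lists of symbols, where a site near 2 genes counts at each. Of 5 sex determination genes, 4 were in the gene table, and their 28 sites held 13 shared (46.4%), 2 drone-only (7.14%) and 1 queen-only site (3.57%). Over all sites the shares were 34.3%, 10.1% and 4.27%, and with equal lists the group had 2 drone-only and 2 queen-only sites. Csd, the sex switch itself, on LG3 (11771679 to 11781139), had 1 shared and 1 queen-only site. The queen-only site (11770162 to 11770253, outside the gene body) had 5.26-fold and 6.70-fold enrichment on 12 and 14 fragments, and both worker libraries also had a call there. Dsx (doublesex), which directs the development of sexual traits, on LG5, held both drone-only sites of the group. One (3530380 to 3530470) had 5.17-fold and 5.27-fold enrichment and the other (3573035 to 3573203) 6.98-fold and 4.72-fold, and neither was called in a worker library. Fem (feminizer), which acts between them, had 5 and 1 peaks in drones and 3 and 1 in queens and no site of one phenotype. Tra2, a splicing partner in this pathway, had 3 sites, all shared.

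The hormone genes came next. The 9 matched genes of 15 in the ecdysone and juvenile hormone list held 244 sites, 97 of them shared (39.8%), 19 drone-only (7.79%) and 14 queen-only (5.74%), against 10.1% and 4.27% over all sites. These were 9 and 16 at equal list length. E74, an early ecdysone response gene, held 8 drone-only and 3 queen-only sites, E75 held 5 and 4, and Ecr, the ecdysone receptor, held 2 and 3. Drones lay above at 33.9% of all shared sites, and at 25% with equal list lengths. At Kr-h1, which is induced by juvenile hormone, 2 of 3 shared sites had drones above. The one at 16510339 to 16510747 on LG6 was at percentiles of 90.4 and 93.4 in drones and 81.2 and 68.9 in queens (limma adjusted p = 0.246). Jhe, which encodes a juvenile hormone esterase, had 1 queen-only site (9460490 to 9460573 on LG3) at 4.38-fold and 4.83-fold.

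Transmitter receptor genes held 334 sites at 23 matched genes of 29, with 67 shared, 40 drone-only (11.98%) and 19 queen-only (5.69%), against 10.1% and 4.27% over all sites. With equal lists there were 25 of each. Among the nicotinic acetylcholine receptor subunits, nAChRa4 had 9 drone-only and 3 queen-only sites and nAChRa3 had 7 and 2, which with equal lists became 5 and 3, and 7 and 5. nAChRa6 had 3 of each, and 2 and 5 with equal lists. Of the serotonin receptors, 5-ht7 had 5 and 0 and 5-HT2beta had 1 and 2, while the tyramine receptor TyrR had 2 and 3. At nAChRa8 a shared site (4709969 to 4710108 on LG5) was at percentiles of 62.8 and 82.2 in drones and 33.2 and 17.8 in queens (limma adjusted p = 0.146). Among the dopamine receptors, Dop1 had 1 drone-only site, Dop3 had 2 and DopR2 had 1 queen-only site.

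The synaptic adhesion genes, whose proteins join the sides of a synapse, were examined last of the neuronal groups. Their 170 sites at 5 matched genes of 13 held 26 shared (15.3%), 25 drone-only (14.7%) and 12 queen-only sites (7.06%), against 34.3%, 10.1% and 4.27% over all sites. With equal lists 16 were drone-only and 12 queen-only. Nrx-1 (neurexin) had 10 drone-only and 7 queen-only sites, and NLG-5, a neuroligin, had 9 and 2. Peaks at NLG-5 numbered 24 and 23 in drones and 13 in each queen library, and those at Nrx-1 36 and 31 against 30 and 26.

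The smaller groups held little. The clock genes Per and Cry2 had 7 sites, 3 of them shared and none of one phenotype, and the DNA methyltransferase Dnmt3 had 5 sites, of which 4 were shared. Of the 4 matched opsins, Lop1 and Lop2, the long-wavelength opsins, had no peak in any of the 4 lists. Uvop, the ultraviolet opsin, had 1 drone-only site (350970 to 351163 on LG10) at 5.78-fold and 4.82-fold, on 13 and 9 fragments. Blop, the blue opsin, had 2 shared sites. At the one from 10150838 to 10151201 on LG14 queens lay above, at percentiles of 94.9 and 81.7 against 75.4 and 74.5 (limma adjusted p = 0.367).

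Genes of gland and fat body were read as markers of other tissues that a brain pool could hold. Of 14 genes (royal jelly proteins, vitellogenin and hexamerins), 7 had any site, with 13 sites in all, 1 drone-only (7.69%), 4 queen-only (30.8%) and 2 shared (15.4%), against 10.1%, 4.27% and 34.3% over all sites. Peaks at the 14 genes summed to 6 in each drone library and 9 in each queen library, and Mrjp1, Mrjp2, Mrjp3 and Vg had none in any library. Queens lay above at 18% of all shared sites, and at 25.4% with equal list lengths. At Mrjp8 both shared sites had queens above. The one from 2313929 to 2314047 on LG11 was at percentiles of 97.8 and 93.8 in queens and 80.6 and 72.9 in drones (limma adjusted p = 0.163). HEX70b had 2 queen-only sites, of which one (11857010 to 11857192 on LG8) was at 6.47-fold and 6.70-fold and the other, in the flank, counts at its neighbour Hex70a as well. A peak near a gene is not its expression, and the part of other tissues in the comparison was not tested.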

How the data were processed

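The authors aligned whole ATAC libraries with BWA 0.7.17 (version from the submitters' processing notes), then took fragments of 0 to 100 bp as nucleosome-free and called peaks per library with MACS2, genome size 2.7e+08 bp. The deposited files are narrowPeak lists with no header line and give for each peak a fold enrichment (the ratio of summit pileup plus 1 to local background plus 1), the −log10 of its p-value and of its q-value, an integer score derived from the latter, and the summit offset. Read totals of the study's supplement are cited for their order only and entered no calculation. Depth was recovered as the whole pileup that solves fold and p (100% of peaks within 5% of a whole number). Differential tests on read counts need reads, which were not used here.

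Lists were merged at 1 bp, and the highest peak by fold represented a library at a site. Genes came from the RefSeq table of Amel HAv3.1, the build of the files, with 12255 genes placed on the 16 chromosomes. The match of chromosome names was checked by summit density at gene ends, whose fold over uniform was 3.71 or more for matched names and 1.33 or less for mismatched ones. The table holds no strand, exons or sequence, so sequences and planned motif counts were not analysed here. Shared sites and chromosome shares were tested with limma 3.58.1 (R 4.3.3) and Benjamini-Hochberg adjustment at 0.05. Library values were tested by exact permutation. Nothing says that replicates share more than a number, and p-values measure the spread between 2 pools a group. Code was tested on simulated data.

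Named sites were the 10 drone-only and 10 queen-only sites of best mean percentile and, as no shared site passed, the 10 non-overlapping shared sites of largest mean difference each way. Named genes were the 10 with most drone-only or queen-only sites, and listed genes found by symbol or synonym. A synonym of trp that belongs to the tachykinin gene was not used. None of the eye transcription factor, glia and muscle symbols was matched, and these are not analysed here. Members, lists and tests were chosen with earlier results of these data known. Genes singled out within lists were chosen after their values were seen. Alternatives were equal list length (28026 peaks by −log10 q or by fold), −log10 q of at least 5, 100 bp around summits, other ranks, and each library left out. The worker lists served only to count calls.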

Additional observations from a re-analysis of the deposited data

How the results depend on the processing

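The number of drone-only sites fell to 3192 with equal list length by −log10 q and 3201 by fold, and queen-only sites (2913 and 2875) stayed within 1.5 times. Leaving out each library in turn gave 6749 to 12484 drone-only and 2720 to 5967 queen-only sites, 18046 to 20001 sites called throughout, and 0 to 6 called chromosomes. Drone-only sites were 12484 without drone replicate 2 and 8547 without drone replicate 1, since 1 list then replaces the agreement of 2. Median percentiles were then 25.7 to 38.2 at drone-only and 23.3 to 35.98 at queen-only sites, and 35.7 at queen-only sites with 100 bp around summits. Summits in gene bodies were 81.4% to 82.4%, 72.2% to 74.6% and 73.9% to 74.7% of drone-only, queen-only and shared sites with each library left out, 68.3% of queen-only sites at a −log10 q of at least 5, and 83.9% of drone-only and 82.2% of shared sites with 200 bp around genes. Shared sites called by limma were 0 except with quantile-normalised log2 fold (87 and 106). A threshold of 0.1, chosen after the data were seen, called 0 on the percentiles as ranked, and towards drones and queens 33 and 66 at equal list length, 279 and 128 with the replicate block, 4 and 1 at a −log10 q of at least 5, and 475 and 558 on quantile-normalised fold. Chromosome calls were 3 with lists equal by fold. The 20 named shared sites kept their direction in all 212 alternative values that could be computed, but only 7 of them were still shared sites at equal list length, 3 at equal length by fold, 3 at a −log10 q of at least 5 and 19 with 100 bp around summits. With the replicate block 0 shared sites were called at 0.05 either way and 8 chromosomes, LG15 being added, and deviations of libraries with the same number correlated at 0.00425 over shared sites and 0.471 over chromosome shares. With 2 replicates a group and no label that ties them, replicate numbers were not taken as pairs. Causes of the other shifts were not tested. Motif counts were not run.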
